A study of Mus musculus with 7 samples.

Results

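Wfdc2, Wfdc17, Wfdc18, Wfdc21 and Slpi are 5 mouse genes that encode small secreted proteins with a whey acidic protein (WAP) domain. They were taken by symbol from the 32285 genes of the deposited count matrices. Wfdc2 was selected on its measured level in tumour cells, which was high in only some libraries, so that pattern is described here and not tested. Single cells were sequenced from 7 libraries of whole NSCG-mCherry brain tumours, a mouse glioma line labelled EGFRvIII+ and Arf/Ink4a-/-, grown in C57BL/6 mice of 7 to 10 weeks.

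Each library pooled at least 2 mice, and tissue was taken at about day 14. The untreated library (UT, n = 1) had no antibody. The isotype libraries (IgG, n = 2) had IgG2b at 10 mg/kg. The BP libraries (n = 2) had B20, an antibody to VEGF, at 5 mg/kg with anti-PD-L1 at 10 mg/kg, both by intraperitoneal injection every 3 days from day 6 to 7. The BPI library (n = 1) had BP plus IPI-145, a PI3K inhibitor, at 10 mg/kg each day by gavage. The CD40 library (n = 1) had a CD40 agonist antibody at 100 µg per dose for 2 doses. For that library the labels do not settle if a vaccine of dendritic cells came with the antibody. The labels give the word control for UT and for both IgG libraries, and a gavage diluent for the isotype arm of the BPI experiment without saying which library that is.

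The WAP domain is a compact, cysteine-rich fold found in secreted inhibitors of serine proteases and in proteins with antimicrobial activity. SLPI blocks neutrophil elastase and cathepsin G and is made by epithelia and by myeloid cells, in which it also dampens NF-kB signalling. WFDC2, also called HE4, is a secreted epithelial protein used as a serum marker of ovarian carcinoma. Wfdc17 is known as a WAP gene of activated microglia and macrophages, and Wfdc18 as an extracellular proteinase inhibitor first described in mammary gland.

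The genes sit in 2 clusters (build GRCm38). Wfdc2 (ENSMUSG00000017723) lies at chr2:164562413-164568510 on the plus strand, and Slpi (ENSMUSG00000017002) at chr2:164354070-164389095 on the minus strand, 173317 bases away. Wfdc17 (ENSMUSG00000069792) lies at chr11:83703991-83706268, Wfdc18 (ENSMUSG00000000983) at chr11:83709015-83711348 and Wfdc21 (ENSMUSG00000051748) at chr11:83746940-83752642, all on the plus strand. Only 2746 bases separate Wfdc17 from Wfdc18, and their transcripts were 82.7% identical over 509 aligned bases with a longest shared run of 30 bases. Only a read of 30 bases or fewer could match both of these transcripts without a mismatch. No other pair of the 5 aligned over more than 116 bases.

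The promoters of the neighbours Wfdc17 and Wfdc18 are shown because the first gene was abundant in myeloid cells and the second was nearly silent in them. Those of Wfdc2 and Slpi are shown because Wfdc2 separated libraries and Slpi separated cell classes. Each run is the 250 bases before the start site, 5′ to 3′ on the gene's strand, from RefSeq on GRCm38.p6, and 4 of the 5 genes matched an entry. Wfdc2 matched 2 entries, and only the first was used here. RefSeq's start sites can lie inside the gene bounds given above, which span all GENCODE transcripts, and the windows of Wfdc2 and Slpi lie within those bounds, as does part of that of Wfdc17. Capitals mark matches to the motifs searched.
Wfdc2: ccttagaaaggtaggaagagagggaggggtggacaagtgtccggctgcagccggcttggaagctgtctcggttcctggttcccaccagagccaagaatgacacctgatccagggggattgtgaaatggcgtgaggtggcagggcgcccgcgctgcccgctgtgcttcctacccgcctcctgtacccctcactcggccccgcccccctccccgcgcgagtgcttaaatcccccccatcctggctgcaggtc
Wfdc17: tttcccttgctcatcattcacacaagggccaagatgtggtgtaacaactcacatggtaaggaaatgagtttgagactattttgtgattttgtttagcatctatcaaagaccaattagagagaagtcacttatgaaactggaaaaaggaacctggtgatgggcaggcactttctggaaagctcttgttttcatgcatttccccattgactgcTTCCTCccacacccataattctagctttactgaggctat
Wfdc18: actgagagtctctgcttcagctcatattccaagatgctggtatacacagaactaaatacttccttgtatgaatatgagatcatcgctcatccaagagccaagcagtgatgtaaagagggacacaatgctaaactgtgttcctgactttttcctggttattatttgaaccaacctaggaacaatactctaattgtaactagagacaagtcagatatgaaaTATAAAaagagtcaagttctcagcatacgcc
Slpi: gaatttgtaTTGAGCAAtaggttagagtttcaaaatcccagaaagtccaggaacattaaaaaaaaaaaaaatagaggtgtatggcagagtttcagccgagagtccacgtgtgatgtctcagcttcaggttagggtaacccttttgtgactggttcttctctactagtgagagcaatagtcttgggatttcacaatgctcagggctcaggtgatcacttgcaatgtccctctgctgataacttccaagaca
The 4 windows are chr2:164562465-164562714 for Wfdc2, chr11:83703806-83704055 for Wfdc17, chr11:83708754-83709003 for Wfdc18 and chr2:164356508-164356757 for Slpi. The Wfdc2 window had a GC content of 64.8% with 14 CpG dinucleotides, whereas the other windows had 38.4% to 42.0% with 0 to 2. The neighbours' windows aligned over 135 bases with 66.7% identity. In this window 6 motifs were searched on both strands, and no matches overlapped. Wfdc17 held the PU.1 core GAGGAA on the minus strand at -39 to -34, as did 23.1% of 27025 promoters, and Wfdc18 held the TATA box TATAAA at -31 to -26, as did 12.97%. Slpi held the C/EBP-like letters TTGCNNAA on the minus strand at -241 to -234, as did 9.55%. No match to the AP-1 site TGANTCA (6.87% of promoters), the GAS element TTCNNNGAA (7.18%) or the NF-kB site (3.75%) was found in these windows, and Wfdc2 held none of the 6.

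After filters and removal of predicted doublets, 48588 cells remained, 5373 to 9650 a library with a median of 8583 to 17434 UMIs, and libraries summed to 68997476 to 186793886 UMIs over all barcodes. A UMI marks 1 captured RNA molecule. Cells were clustered with the 5 genes left out of the clustering genes and named from marker lists as X-like, and 11.9% stayed unnamed. Levels are in CPM, which scales the gene's UMIs to all UMIs of that class in that library. Tumour-like cells fell apart by library. Those of IgG 1, BP 2 and BPI, a set with consecutive library numbers in the labels, filled clusters 21, 22 and 23, of which they made up 99.2% to 99.8%. These clusters carried 3 or 4 of 11 tumour markers, against 8 to 11 in the other tumour-like clusters. In the 3 libraries Sox2 was at 51.7 to 61.3 CPM and Egfr at 184 to 226, but Olig2 was at 0.34 to 1.17 CPM against 14.3 to 91.7 in the other 4, and Ptprz1 at 0.32 to 1.09 against 62.1 to 98.0. These clusters are tumour-like by the rule, yet several glial markers are near 0 in them. UT barcodes come from another barcode list, and library pairs shared 0 to 27 barcodes.

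Wfdc2 was abundant in the tumour-like cells of 3 libraries and close to absent in those of the other 4. Its level was 304 CPM in IgG 1 (21611 UMIs in 4445 cells), 336 CPM in BP 2 (18725 UMIs in 4114 cells) and 393 CPM in BPI (18514 UMIs in 4233 cells). UT stood at 2.38 CPM (139 UMIs in 2635 cells), BP 1 at 0.125 (14 UMIs in 4977 cells), IgG 2 at 0.124 (15 UMIs in 5922 cells) and CD40 at 0.106 (11 UMIs in 5430 cells). The high libraries include 1 of 2 isotype and 1 of 2 BP libraries, so libraries of 1 treatment stood on both sides. The lowest of the 3, IgG 1, was 128.01 times the highest of the others, UT (95% interval 108 to 152, counting error only).

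The pattern was one of most cells and not of a few. A Wfdc2 UMI was found in 83.6% of tumour-like cells of IgG 1, 83.7% of BP 2 and 84.8% of BPI, against 1.67% in UT, 0.24% in BP 1, 0.20% in CD40 and 0.14% in IgG 2. With each cell thinned to 5000 UMIs the shares were 65.3%, 68.6% and 73.3% in the 3 libraries and 0.05% to 0.88% in the other 4. At least 5 UMIs were seen in 41.9%, 41.0% and 38.1% of cells. In UT, 4 cells held 56.1% of the 139 UMIs, 44 of them in 1 cell.

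**Figure D1:**
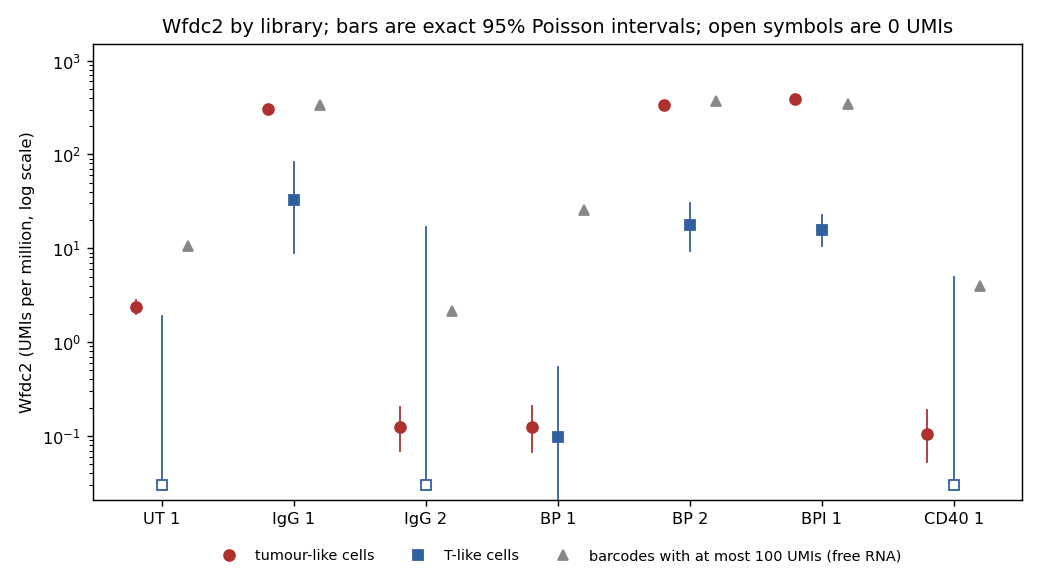
Wfdc2 level (CPM, log axis) by library in tumour-like cells, T-like cells and free RNA, with exact 95% Poisson intervals for the cells; open symbols stand for no UMI. Tumour-like cells of IgG 1, BP 2 and BPI sit at 304 to 393, all above the other libraries, which lie at 2.38 or less.

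Free RNA, measured in barcodes of up to 100 UMIs, held Wfdc2 at 336, 372 and 344 CPM in IgG 1, BP 2 and BPI. In BP 1 it was 25.3 CPM, above any named class of that library with 20 or more cells, in UT 10.5, in CD40 3.94 and in IgG 2 2.15. T-like cells, which should lack the gene, had 32.8, 17.6 and 15.8 CPM in the 3 libraries with a UMI in 4.7% to 7.7% of cells. By the free RNA estimate, ambient molecules amount to 8.0%, 7.2% and 3.9% of the tumour-like level in the 3 libraries and to all of the monocyte/macrophage-like and microglia-like level. Wfdc2 in leukocytes of the 3 libraries (7.89 to 80.1 CPM in those 2 classes) is therefore read as background.

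Within the 3 libraries Wfdc2 was higher in the clusters that held most of their tumour-like cells. Its level in clusters 21, 22 and 23 ranged from 246 CPM (cluster 21, IgG 1) to 416 CPM (cluster 21, BPI), and no one of these 3 was highest in every library. The few tumour-like cells of these libraries that fell in the other clusters had 34.9 CPM (IgG 1, 101 cells), 39.2 CPM (BP 2, 165 cells) and 69.1 CPM (BPI, 156 cells). These levels lie within the range of the leukocytes of the 3 libraries, which is read as background. Of the 112 UMIs in BPI, 29 lay in 8 cells of cluster 18. Cells of the other libraries inside clusters 21 to 23 carried 0 Wfdc2 UMIs in 23 cells of IgG 2 and 1 in 14 cells of CD40. Unnamed cluster 24, whose cells are shallow with a median of 1564 to 2416 UMIs, held 369 to 1140 cells of each of 5 libraries and 2 of BP 1, and its Wfdc2 level was again high in IgG 1, BP 2 and BPI. There Wfdc2 was at 302 CPM in IgG 1, 310 in BP 2 and 385 in BPI, with 0 UMIs in 460 cells of CD40 and 369 of IgG 2.

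**Figure D2:**
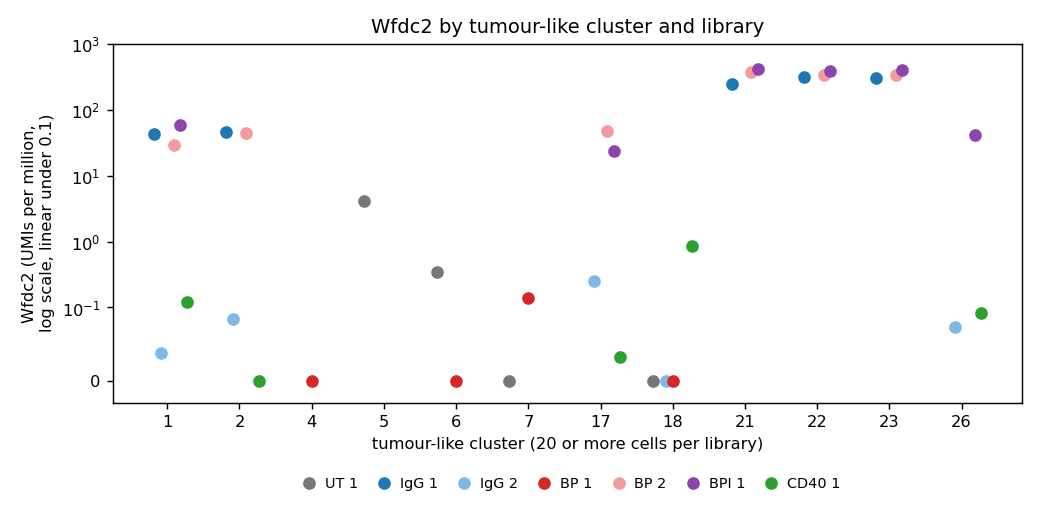
Wfdc2 level (CPM, log axis, linear under 0.1) in each tumour-like cluster with 20 or more cells in a library, 1 point a library. Clusters 21, 22 and 23 hold the points from 246 to 416 CPM, all from IgG 1, BP 2 and BPI.

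Of 9375 genes with at least 10 CPM on average in tumour-like cells, Wfdc2 ranked 1 by the ratio of the lowest of the 3 libraries to the highest of the other 4 (90.4 on CPM plus 1). A ratio of at least 10 was reached by 0.096% of these genes, 9 in number, and 48 genes had the opposite ratio of that size. The genes whose log2 level over the 7 libraries was most like that of Wfdc2 were Gm48362 (r = 0.999), Ier3, Ddt, Ecscr and Sdc2. Gm48362, a gene with no name, was at 119 CPM or more in the 3 libraries and 1.11 to 4.38 in the others. Ddt, D-dopachrome tautomerase, was at 261 to 271 CPM against 36.9 to 46.8, and Ier3, an immediate early gene, at 181 to 211 against 48.1 to 60.6. The most opposite genes were Hivep3, Efhd2, Col4a1, Dpysl2 and Zfp868, of which Col4a1, a basement membrane collagen, was at 1.58 to 1.68 CPM against 38.4 to 108. These are descriptions over 7 libraries that share the split described above. Wfdc2 was selected on this split and reached the 10 CPM average only through the 3 libraries, so its rank is no test.

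Epithelial and choroid plexus markers were low in these cells. Of 12 epithelial markers, 11 stayed under 1 CPM in the 3 libraries' tumour-like cells. The exception was Elf3, an epithelial transcription factor, at 2.93 to 3.19 CPM there and 0.31 to 1.61 in the others. Epcam was at most 0.57 CPM. Choroid plexus markers summed to 22.2 to 23.2 CPM in the 3 libraries and 13.5 to 93.6 in the others. Choroid plexus-like cells, the secretory epithelium of the ventricles, were the one other class with a high level outside those libraries. Wfdc2 was at 162 CPM in CD40 (58 cells, 82.8% with a UMI) and 101 CPM in IgG 2 (24 cells).

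Most neighbours of Wfdc2 were low. Of 30 annotated genes within 200 kb, 25 are in the files, 14 were under 1 CPM in tumour-like cells of every library and 8 reached 10 CPM in at least 1. Of the 6 with at least 10 CPM on average, 0 had the 3 libraries above all others, against 7.97% of the 9375 genes of that level. Slpi, under that level on average, was at 11.9, 11.1 and 15.3 CPM in IgG 1, BP 2 and BPI. It was at 5.32 CPM in UT, 1.76 in BP 1, 0.88 in CD40 and 0.75 in IgG 2. Of all 25 neighbours, 4 had the 3 libraries above all others, namely Slpi, Wfdc6a, Rbpjl and Wfdc6b. Wfdc6a was at 0.32 to 0.70 CPM against 0.03 to 0.12, and Rbpjl at 0.54 to 0.77 against 0.05 to 0.26. Wfdc6b was at 0.014 to 0.021 against 0, but it had only 4 UMIs in all cells and 1 in the tumour-like cells of BPI. The share of all genes of such low levels that do so was not computed. Pigt, a subunit of the GPI transamidase, was lower, at 50.6 to 54.9 CPM against 91.1 to 262. Matn4 (0.15 to 0.34 against 0.62 to 2.09) and Wfdc3 (0.225 to 0.807 against 0.809 to 4.01) also had the 3 libraries below all others. The share of all genes lying below in this way was not computed. Wfdc8, another gene of the cluster, was at 7.78 to 17.0 CPM against 2.58 to 25.2, so the ranges overlapped. Spint3, closer still, stayed under 1 CPM throughout.

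The other 4 genes had their highest levels in leukocytes or, for Wfdc18, in oligodendrocyte-like cells. Wfdc17 was found in monocyte/macrophage-like cells of every library, at 505 CPM in UT, 300 in IgG 1, 333 in IgG 2, 399 in BP 1, 388 in BP 2, 674 in BPI and 315 in CD40. It was higher still in the few neutrophil-like cells, at 2221 CPM in BP 1 (27 cells), 7038 in BPI (14 cells) and 3297 in BP 2 (9 cells). Tumour-like cells had 0.04 to 1.76 CPM. Between 59.1% and 73.4% of monocyte/macrophage-like cells had a Wfdc17 UMI, and free RNA amounted to at most 1.2% of the level. With each cell thinned to 2000 UMIs the shares were 30.4% in CD40, 32.3% in IgG 2 and 35.9% in BP 1. They were 45.0% in BP 2, 47.3% in IgG 1, 48.2% in UT and 57.6% in BPI.

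Slpi was spread over more classes, and tumour-like cells, the most numerous, held 2874 of its 6232 UMIs at 0.75 to 15.3 CPM a library. Plasmacytoid dendritic-like cells, which make type I interferon, had 365 CPM in BP 1 (203 cells), 427 in UT (35 cells) and 233 in BPI (34 cells). Neutrophil-like cells of BP 1 had 312 CPM, and oligodendrocyte-like cells, the myelin makers, 25.7 CPM in CD40 and 43.5 in IgG 2. In B-like cells of BP 1 a level of 220 CPM came from 4 of 52 cells. T-like cells stayed at or under 4.62 CPM.

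Wfdc21 was highest in neutrophil-like cells. Its level was 1010 CPM in neutrophil-like cells of BP 1 and 2796 in those of BPI, against 8.50 CPM or less in monocyte/macrophage-like cells, where 19 of 640 BPI cells held 27 UMIs. Neutrophil-like cells numbered 62 in all libraries, so these levels rest on few cells. Wfdc18 was rare. Monocyte/macrophage-like cells held 0 to 24 Wfdc18 UMIs a library (0 to 2.50 CPM), while oligodendrocyte-like cells had 33.8 CPM in CD40 (11 of 52 cells with a UMI) and 13.7 in IgG 2. So the 2 neighbours with similar transcripts differed in myeloid cells by their UMIs in each library, 178 of Wfdc17 and 1 of Wfdc18 in IgG 1 and 7042 and 24 in BP 1.

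**Figure D3:**
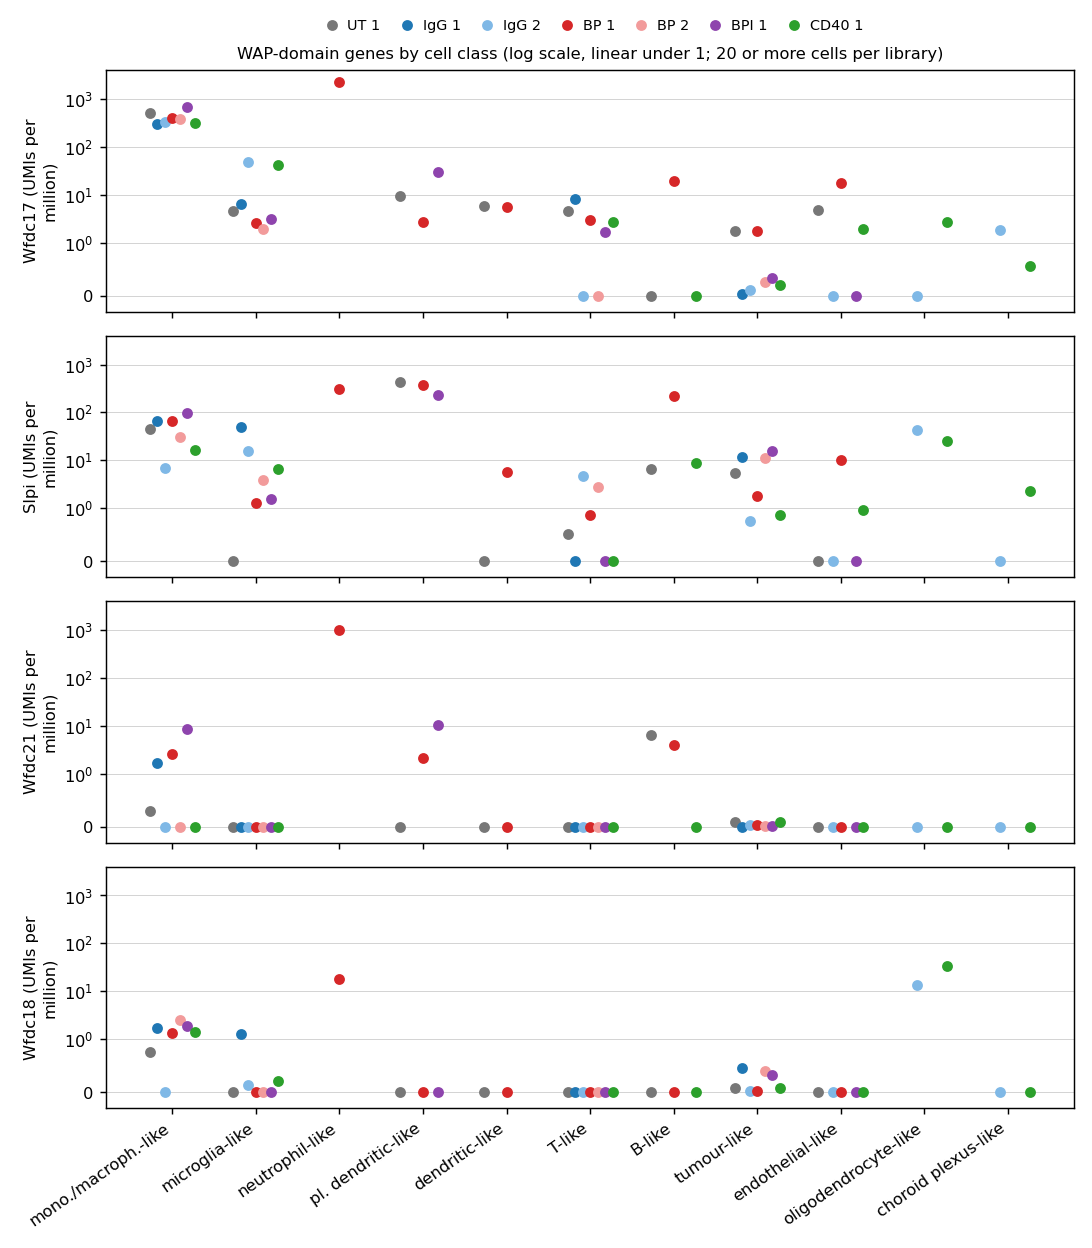
Levels of Wfdc17, Slpi, Wfdc21 and Wfdc18 (CPM, log axis, linear under 1) in a choice of classes, 1 point a library with 20 or more cells. NK-like, fibroblast-like, mast or basophil-like, mural-like and astrocyte-like cells are not drawn. Wfdc17 is at 300 to 674 CPM in monocyte/macrophage-like cells and Slpi at 233 to 427 in plasmacytoid dendritic-like cells.

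The genes most like each of these over 57 class-by-library sums, which share libraries and depth, fitted those classes. For Wfdc17 they were Lyz2, the myeloid lysozyme (r = 0.894), Gm50022, Cd300ld, Clec4n and Trem3. For Wfdc21 they were Il1f9, an IL-1 family cytokine (r = 0.881), Ly6g, a neutrophil surface protein, Stfa2, Retnlg and Stfa2l1, and for Wfdc18 1700047M11Rik (r = 0.846), Gm42205, Opalin, a myelin protein, Prima1 and Scd3. For Slpi the likeness was weaker, led by Trim30b (r = 0.729), Plekhm3, Cfp, which encodes properdin, 9830107B12Rik and Tpd52. Between the 5 genes r ran from -0.13 to 0.56.

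Whether treatment moved these genes was asked in monocyte/macrophage-like and microglia-like cells, the 2 myeloid classes with at least 20 cells in each of the 6 libraries fitted. UT was kept out of the fit. The BPI and CD40 libraries have no replicate, and their spread was assumed to be that of IgG and BP. Replicates are separate libraries of pooled mice, so a p-value measures the spread between libraries. Fits without 1 replicate take that spread from the 1 group that keeps 2 libraries. In bulk sums of a class, more cells of a subtype and more RNA per cell cannot be told apart. The edgeR quasi-likelihood test with Benjamini-Hochberg adjustment called no gene in any of the 6 comparisons (0.0% of 11783 genes in monocyte/macrophage-like cells and of 9531 in microglia-like cells). At an unadjusted p under 0.05 it passed 944 genes (8.01%) for BP, 1307 (11.1%) for BPI and 116 (0.984%) for CD40 in monocyte/macrophage-like cells. In microglia-like cells it passed 1098 (11.5%), 450 (4.72%) and 44 (0.462%). DESeq2 called 109, 194 and 3 genes in the first class and 60, 29 and 0 in the second, with neither Wfdc17 nor Slpi among them.

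In monocyte/macrophage-like cells Wfdc17 was highest in BPI. Its level there, 674 CPM, exceeded the 300 and 333 CPM of the IgG libraries, a log2 difference of 1.61 (SE 0.50, unadjusted p = 0.011, edgeR adjusted p = 0.278). BPI lay above both IgG libraries in 18.8% of all genes tested. The size of the fitted difference includes the scaling: the TMM factor of BPI was 0.758 against 0.919 to 1.12 in the others, which brings its level to 893 scaled CPM. Both BP libraries, at 399 and 388 CPM, also lay above both IgG libraries, as 13.7% of genes did, with a log2 difference of 0.42 (SE 0.42, edgeR adjusted p = 0.898). Within the set the order was IgG 1, BP 2 and BPI, and with a term for it the BPI difference was 1.58 (edgeR adjusted p = 0.193). Without BP 2 it was called (1.61), with 1 BP library left and the spread taken from the IgG libraries. CD40, at 315 CPM, lay between the IgG libraries, with a log2 difference of 0.01 (SE 0.52, edgeR adjusted p = 1). In IgG 2, the higher of these, 85 of the 438 Wfdc17 UMIs lay in 1 cell (19.4%).

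Slpi varied more between libraries of 1 group. It was at 65.8 CPM in IgG 1 and 6.84 in IgG 2, with 22 of the 39 IgG 1 UMIs in 1 cell (56.4%). That cell lies in sub-cluster 7 of a re-clustering of this class, whose leading genes include Egfr, a gene of the tumour cells. BP 1 had 64.9 CPM, BP 2 31.2, BPI 98.8, CD40 16.7 and UT 44.9, so that only BPI lay above both IgG libraries. The log2 differences were 2.08 for BPI (SE 0.93, edgeR adjusted p = 0.461), 0.60 for BP (SE 0.81, edgeR adjusted p = 0.937) and -0.99 for CD40 (SE 1.04, edgeR adjusted p = 1). Without sub-clusters 4, 7 and 9, led by dendritic, tumour or T cell genes, they were 3.18 for BPI (edgeR adjusted p = 0.109) and 1.57 for BP (edgeR adjusted p = 0.528). Without IgG 1, the library with that cell, Slpi passed the test for BP (log2 difference 2.91, edgeR adjusted p = 0.028) and for BPI (4.40, edgeR adjusted p = 0.00098), each against 1 isotype library whose spread was assumed. Without IgG 2 the differences were -0.40 for BP and 1.08 for BPI and were not called. Without BP 2 Slpi was called for BPI (2.16), with 1 BP library left. Within the set Slpi ran from 31.2 CPM in BP 2 over 65.8 in IgG 1 to 98.8 in BPI. With a term for the set Slpi was called for BPI (1.90, edgeR adjusted p = 0.0043). That fit leaves only 1 difference between libraries to measure the spread.

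Wfdc21 had 27 UMIs in monocyte/macrophage-like cells of BPI (8.50 CPM), 46 in BP 1 (2.61), 2 in UT (0.31) and 1 in IgG 1, with none in BP 2, CD40 and IgG 2. For BPI the log2 difference was 4.37, with an SE of 1.85 and an edgeR adjusted p of 0.436. Neutrophil markers summed to 116 CPM in BPI and 135.5 in BP 1, against 36.5 to 76.1 in the other libraries of this class, and their part in the Wfdc21 level was not tested. Wfdc18 did not pass the filter on low counts in either class, and Wfdc21 did not in microglia-like cells.

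In microglia-like cells Wfdc17 was low, with 2 libraries above the rest. The class differs in cluster by library: 64 of the 69 BP 1 cells come from a sub-cluster of cluster 16, which holds 1 other microglia-like cell of the fitted libraries, whereas all cells of both IgG libraries come from cluster 15. The part of this in the BP differences was not tested. CD40 had 41.7 CPM (12.7% of 867 cells with a UMI) and IgG 2 48.3 (13.3% of 715 cells), whereas the other 5 libraries, with 42 to 191 cells, had 1.97 to 6.46 CPM from 1 to 5 UMIs. In BP 1, BP 2, BPI and UT that is no more than the free RNA estimate. The log2 differences were -3.68 for BP (edgeR adjusted p = 0.353), -3.12 for BPI (edgeR adjusted p = 0.999) and 0.43 for CD40 (edgeR adjusted p = 1). Without IgG 2 they were -1.39 for BP, -0.82 for BPI and 2.73 for CD40. Over 13 alternative settings the differences ran from -9.63 to -0.76 for BP and from -9.63 to -0.82 for BPI. Both BP libraries lay below both IgG libraries, as 25.4% of genes did, and BPI did too, as 49.2% did. CD40 and IgG 2, which have neighbouring library numbers, are also the 2 with the most microglia-like cells. Within that pair the level was alike, and within the set of IgG 1, BP 2 and BPI, IgG 1 had 6.46 CPM, BPI 3.14 and BP 2 1.97.

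Slpi in microglia-like cells was at 49.1 CPM in IgG 1, of which 26 of 38 UMIs lay in 1 cell (68.4%), and at 15.3 CPM in IgG 2, with 25.6% in 1 cell. It was at 1.28 CPM in BP 1, 3.95 in BP 2, 1.57 in BPI, 6.49 in CD40 and 0 in UT. All 4 treated libraries lay below both IgG libraries, against 25.4% of genes for BP, 49.2% for BPI and 33.2% for CD40. The log2 difference for BP was -3.59 (SE 0.96, unadjusted p = 0.0067, edgeR adjusted p = 0.352). The BP libraries hold 1 and 2 UMIs, and with predicted doublets kept the difference turned to 0.55.

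**Figure D4:**
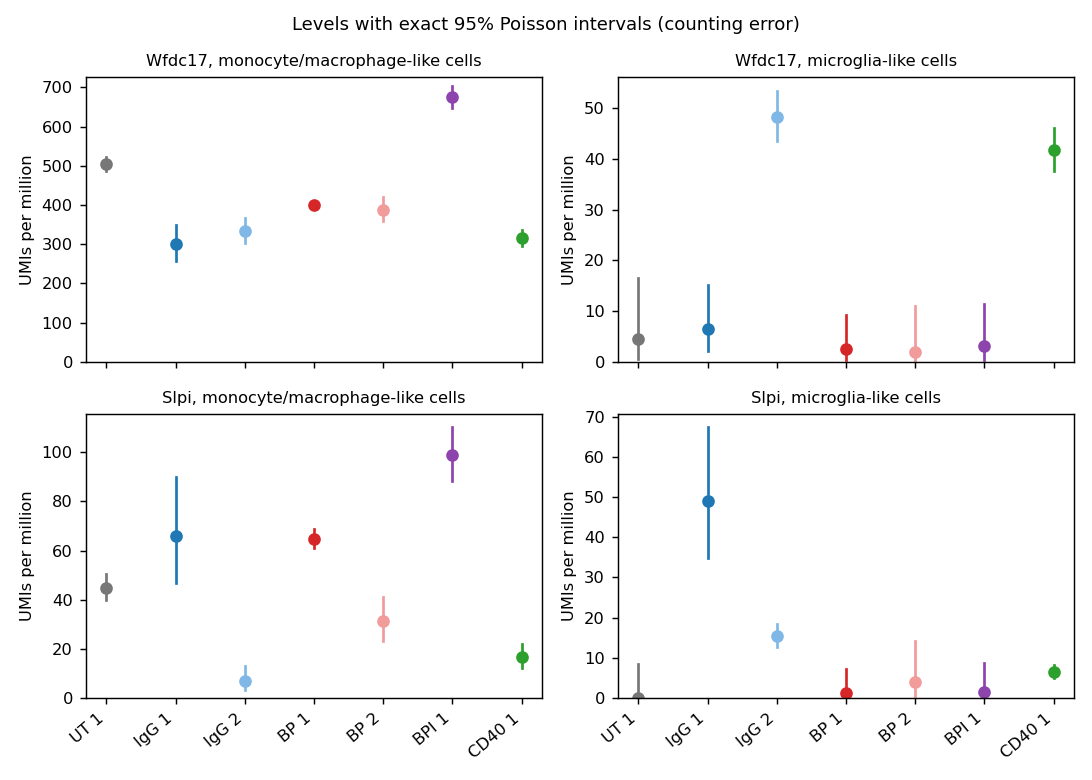
Wfdc17 and Slpi levels (CPM, linear axes) by library in monocyte/macrophage-like and microglia-like cells, with exact 95% Poisson intervals. Wfdc17 in monocyte/macrophage-like cells is highest in BPI at 674 CPM, and in microglia-like cells it stands out in IgG 2 and CD40 at 48.3 and 41.7 CPM.

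The BP effect was then compared between the classes in 1 fit with library as a block. For Slpi it was larger in monocyte/macrophage-like than in microglia-like cells by a log2 difference of 4.63, with an SE of 0.84 and an edgeR adjusted p of 0.039, 1 of 21 genes called of 11916 tested (0.176%). The difference was no longer called without BP 1 (3.34) or with free RNA subtracted (6.20, edgeR adjusted p = 0.221). It was 5.83 without BP 2, 5.65 without IgG 1 and 3.87 without IgG 2, each with 1 library left in that group. Its microglia-like side rests on the IgG 1 and IgG 2 cells that hold most of the UMIs. BP 1 and the IgG libraries draw on different clusters in both classes, cluster 25 against cluster 12 and cluster 16 against cluster 15. For Wfdc17 the difference was 3.77 (SE 1.02, edgeR adjusted p = 0.209). It was called without IgG 1 (4.73) or without BP 2 (3.73), each with 1 library left in that group. Without IgG 2 it was 1.79 (edgeR adjusted p = 1).

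The monocyte/macrophage-like class differed in make-up between libraries. The class holds cluster 25, with 1656 of its 1664 cells from BP 1, and cluster 12, which holds nearly all the other libraries' cells. Re-clustering gave 10 sub-clusters. Sub-cluster 5, led by Ptgs2, Clec4e, Vcan and Il6, held 305 of 640 BPI cells, 67 of 260 BP 2 cells, 19 of 78 IgG 1 cells and 1 of 62 IgG 2 cells. Its monocyte markers summed to 11091 CPM and its macrophage markers to 1722. Sub-cluster 6, led by Fcrls, Cx3cr1 and Gpnmb, held 226, 149, 45 and 40 cells of the same libraries and 113 of CD40, with macrophage markers at 33336 CPM. Fcrls, Cx3cr1 and Bhlhe41, another of its leading genes, are also genes of microglia. Microglia markers summed to 444 to 2929 CPM in the class, lowest in BP 1 and highest in IgG 2, and their part in these levels was not tested. BP 1 made up at least 99.0% of sub-clusters 2, 3 and 8, and UT 98.1% of sub-cluster 0.

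Within sub-cluster 6 Wfdc17 was at 252 CPM in IgG 1, 384 in IgG 2, 270 in BP 2 and 344 in BPI and CD40. BPI thus lay between the IgG libraries. Whether the IgG 2 level there includes the cell with 85 of the 438 IgG 2 UMIs of the class was not checked. In sub-cluster 5 it was at 890 CPM in BP 2, 1052 in BPI and 542 in the 19 cells of IgG 1, 1 library each of BPI and IgG and so with no test. Within the BPI library the level was thus 1052 CPM (95% interval 999 to 1108, counting error only) in sub-cluster 5 and 344 (312 to 378) in sub-cluster 6. In BP 1 it was 783 CPM in sub-cluster 2, 645 in sub-cluster 1, 444 in sub-cluster 8, led by Pla2g2d and Mmp12, 208 in sub-cluster 3, led by Retnla, Arg1 and Mrc1, and 135 in the 28 cells of sub-cluster 4, led by dendritic cell genes. Sub-cluster 1, led by Adgre4, Ace and Treml4, genes of non-classical monocytes, had 9 to 110 cells in every library. Wfdc17 was there at 978 CPM in UT, 882 in BPI, 645 in BP 1, 517 in BP 2, 297 in CD40, 278 in IgG 1 and 158 in IgG 2. In IgG 2 it was thus lower in sub-cluster 1 than in sub-cluster 6, and in CD40 the intervals of these sub-clusters overlap.

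In BPI and BP 2 Slpi was also higher in sub-cluster 5 than in sub-cluster 6. It was at 176 CPM in sub-cluster 5 of BPI and 96.1 in that of BP 2, against 33.8 and 9.95 in sub-cluster 6 of those libraries. Sub-cluster 6 of IgG 1 had 23.7 CPM and of IgG 2 6.65. In BP 1 it was 31.2 CPM in sub-cluster 3, 85.4 to 95.03 in sub-clusters 1, 2 and 8 and 10.4 in the 28 cells of sub-cluster 4, from 3 UMIs. Wfdc21 in BPI was at 15.97 CPM in sub-cluster 5 and 22.1 in sub-cluster 1. The part of this make-up in the class differences was not tested. The sub-clusters were cut from these cells with the 5 genes left out, and their levels are descriptions.

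**Figure D5:**
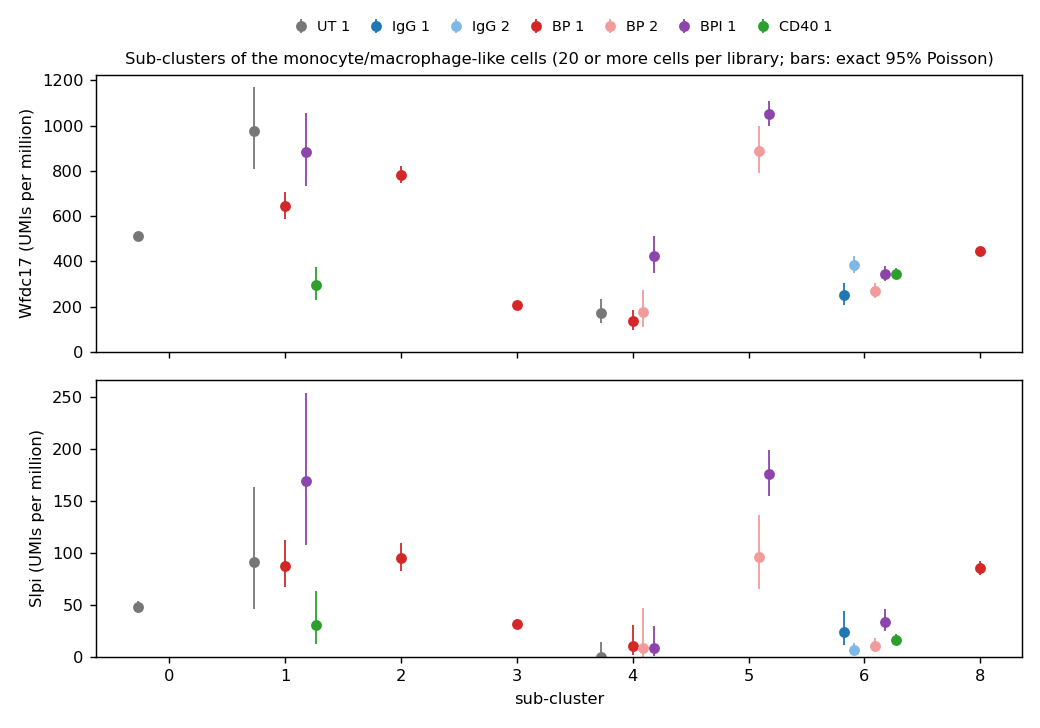
Wfdc17 and Slpi levels (CPM, linear axes) by sub-cluster of the monocyte/macrophage-like cells, 1 point a library with 20 or more cells, bars for exact 95% Poisson intervals. Within sub-cluster 6 all Wfdc17 points lie at 252 to 384 CPM, and sub-cluster 5 holds BP 2 and BPI at 890 and 1052.

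Gene lists around these inhibitors were read in the same fit. None of their genes passed, so they are described by counts beside the median over all genes (log2 difference 0.04 for BP, -0.002 for BPI and -0.01 for CD40). Of 8 listed granule serine proteases, only Prtn3 and Elane passed the count filter. Prtn3, proteinase 3, was at 42.8 CPM in BPI against 6.74 in IgG 1 and 4.99 in BP 2. Its BPI difference was 4.16 on the log2 scale (edgeR adjusted p = 0.11). Of 18 NF-kB response genes, 18 had a positive difference for BPI (median 2.20), 16 for BP (median 0.91) and 11 for CD40 (median 0.12). Il1b, the cytokine IL-1 beta, was at 1842 CPM in BPI, 1241 in BP 2 and 378 in BP 1, against 406 and 113 in the IgG libraries. Ccl4, a chemokine gene near Wfdc17, was at 1497 CPM in BPI and 1252 in BP 2, against 641 and 267 in the IgG libraries and 136.8 in BP 1. Ccl2 and Cxcl2, chemokines for monocytes and neutrophils, were at 1732 and 1709 CPM in BPI. In IgG 1 and IgG 2 Ccl2 was at 1615 and 333 CPM, and Cxcl2 at 887 and 622.

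Of 15 other protease inhibitors tested, 12 had a positive difference for BPI (median 0.84), 9 for BP (median 1.01) and 5 for CD40 (median -0.095). Cst3, cystatin C, was at 2878 CPM in BPI, between the 2153 and 3531 of the IgG libraries, and at 1806 in BP 1. Serpina3g, an inhibitor of cysteine cathepsins, was at 469 CPM in BPI, 377 in BP 1 and 156 in BP 2, against 40.5 in IgG 1 and 3.04 in IgG 2, but it was highest in UT at 578. Timp2, an inhibitor of metalloproteinases, was lowest in BPI at 66.7. Of 9 monocyte markers 8 had a positive difference for BPI (median 2.91), among them Plac8 at 3525 CPM and Ly6c2 at 2496, which in UT were at 3643 and 3258. Of 10 macrophage markers 1 did (median -1.79), and Apoe, at 3842 CPM in BPI against 10333 and 29483 in the IgG libraries, Ctsd, C1qa and C1qb were each lower. For BP, 8 of the 9 monocyte markers (median 1.23) and 1 of the 10 macrophage markers (median -0.63) had a positive difference. For CD40 these were 3 (median -0.82) and 6 (median 0.10). Of 11 alternative activation genes 10 had a positive difference for BP (median 3.44), and Arg1, arginase, at 1782 CPM, and Ccl24 at 3000, were high in BP 1 and not in BP 2 (6.24 and 0 CPM).

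Of 23 annotated genes within 200 kb of Wfdc17, 14 are in the files, and 5 of these are CC chemokine genes. In monocyte/macrophage-like cells Ccl9 was at 504 CPM and Ccl6 at 964 in BP 1, against 54.7 to 221 and 88.9 to 200 in the other 6 libraries, and Ccl3 at 480 in BP 2 and 370 in BPI. Ccl5 ran from 2.28 CPM in IgG 2 to 2751 in UT. Wfdc17 spanned 300 to 674 CPM in the same cells.

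Of the other 18 WAP-domain genes listed, all in the files, 4 reached 5 CPM in a class of 20 or more cells. Wfdc1 was a gene of endothelial-like cells (33.9 to 108 CPM, 348 UMIs) and of fibroblast-like cells (96.9 CPM). Wfdc8 was found at up to 25.2 CPM in tumour-like and 25.1 CPM in microglia-like cells, Wfikkn2 in choroid plexus-like cells (9.31 to 25.5 CPM) and Wfdc13 in dendritic-like cells, from 5 UMIs. Wfdc15b, Wfdc16 and Eppin had no UMI in any class.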

How the data were processed

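Deposited UMI counts per gene and barcode were used as the authors gave them, unnormalized and with all barcodes listed. The matrix headers name Cell Ranger 4, per the file headers, and the submitters' processing notes list Cell Ranger 7.0.1 and mm10; which version made which step is not given in the sources used here. The labels' protocols state V2 chemistry for 6000 cells per library.

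Barcodes were kept (51795) if they had 1000 UMIs and 500 genes or more, with no more than 15% of UMIs mitochondrial, Scrublet removed 3207 expected doublets, set at 0.8% per 1000 cells, and 48588 were clustered (scanpy 1.11.5, 2000 variable genes, 30 components, Leiden resolution 1.0). The 21 marker lists named clusters by at least 3 raised markers. Sub-clusters 4, 7 and 9 of the monocyte/macrophage-like class were led by dendritic, tumour or T cell genes and stayed in the class. The sums of counts over the cells of a class in a library were tested by edgeR 4.0.16 (quasi-likelihood, TMM, filterByExpr, Benjamini-Hochberg over all genes, 0.05), in 1 fit of the 6 libraries other than UT, with DESeq2 1.42.0 as an alternative. On simulated data with 200 genes changed 4-fold, the BP test recovered 56% with 8 false calls in monocyte/macrophage-like cells (11783 genes). In microglia-like cells (9531 genes) it recovered 83% with 14 false calls. The changed genes were drawn from those above the median level, so recovery of genes at lower levels was not simulated. All libraries shared 1 simulated profile apart from the changed genes.

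Intervals are exact 95% Poisson intervals and cover counting error only. The members and the lists were chosen with earlier results of these data known. Genes named were the 5 members, other WAP-domain genes with at least 5 CPM in a class of 20 cells or more, the 5 genes most like each member, and up to 4 genes of highest mean CPM from each of 7 lists. Neighbours of Wfdc2 and Wfdc17, the WAP genes with no UMI, and genes leading sub-clusters were named after their values were seen. Alternatives covered scaling, filters, doublets, free RNA, library set, replicate block, clusters and each replicate left out.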

Additional observations from a re-analysis of the deposited data

Results flagged for a closer look

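The BP effect on Slpi differed between monocyte/macrophage-like and microglia-like cells by 4.63 on the log2 scale in a test of the difference itself (edgeR adjusted p = 0.039). The microglia-like side of it rests on 38 Slpi UMIs in IgG 1, 117 in IgG 2, 1 in BP 1 and 2 in BP 2. Of the 38, 26 lay in 1 cell. With 1 replicate left out the difference ran from 3.34, without BP 1 and no longer called, to 5.83. With free RNA subtracted it was 6.20 and no longer called (edgeR adjusted p = 0.221).

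The UT library entered no test, yet its monocyte/macrophage-like cells had Wfdc17 at 505 CPM, above both IgG libraries (300 and 333 CPM). In UT, sub-cluster 0 had 512 CPM and sub-cluster 1 had 978. UT is 1 library, and the share of all genes at which it lies above both IgG libraries was not computed. Of its 579 cells of this class, 514 lie in sub-cluster 0, of which UT makes up 98.1%.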

How the results depend on the processing

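Calls in the myeloid classes depended on the model. In the order BP, BPI and CD40 against IgG, where the edgeR test called 0 genes each, monocyte/macrophage-like cells had 414, 606 and 47 calls with no filter on low counts, 634, 543 and 30 with a library-set term and 109, 194 and 3 by DESeq2. Microglia-like cells had 360, 146 and 44, then 13, 1 and 0, then 60, 29 and 0. BPI in monocyte/macrophage-like cells had 4 calls with free RNA subtracted, 36 in cluster 12 alone and 16 without sub-clusters 4, 7 and 9, the last 2 chosen after seeing the data. Leaving out each replicate in turn gave 0 to 872, 0 to 969 and 0 to 15 calls in monocyte/macrophage-like cells and 0 to 500, 0 to 101 and 0 to 2 in microglia-like cells, the highest without BP 2 except for the last, without IgG 2. The interaction test (21 calls) gave 0 with free RNA subtracted, 3 with all of cluster 16 counted as microglia-like, and 2 (without BP 1) to 216 (without BP 2) with 1 replicate left out. The cause was not tested.

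Same-numbered replicates did not deviate together (correlation -0.21 over 4443 genes in monocyte/macrophage-like and -0.09 over 4884 in microglia-like cells). The replicate block gave 23 and 1 BP calls, and the crossed pairing, chosen after seeing the data, 511 in the first class.

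The Wfdc2 ratio of 128.01 fell to 15.7 with doublets kept and clusters named again, since clusters of the high libraries then lost their name; it was 117 to 146 under the other 5 settings. Directions turned for differences near 0 or on few UMIs. Wfdc17 for CD40 in monocyte/macrophage-like cells was -0.023 with DESeq2 size factors, -0.019 by DESeq2, -0.052 with free RNA subtracted, -0.0027 from 2000 UMIs a cell, -0.16 with doublets kept, -0.0040 with the members among the variable genes, and -0.047 to 0.054 with 1 replicate left out. In microglia-like cells it was -0.16 with the library-set term and -0.22 to 2.73 with 1 replicate left out. Slpi for CD40 became 0.029 without sub-clusters 4, 7 and 9, Slpi for BP in microglia-like cells 0.55 with doublets kept, and Wfdc21 for BP -3.04 in cluster 12 alone. With 1 replicate left out, Slpi ranged from -0.40 to 2.91 for BP, Wfdc21 from -3.10 to 6.20 for BP and Slpi from -1.99 to 1.32 for CD40. No adjusted p of these was under 0.05 except that of Slpi for BP without IgG 1. With no filter, Slpi was called for BPI in monocyte/macrophage-like cells (2.05, edgeR adjusted p = 0.0028) and Wfdc17 (-3.75) and Slpi (-3.61) for BP and Wfdc17 for BPI (-3.20) in microglia-like cells. Wfdc17 for BPI in monocyte/macrophage-like cells was called without BP 2 (1.61), with 1 BP library left, and ranged from 1.24 to 1.66 over 14 settings. In microglia-like cells 4 libraries hold 1 or 2 Wfdc17 UMIs each, too few to order those libraries.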
